A study of Homo sapiens with 9 samples.

Results

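The genes described here are 10 regulators of the step from G1 into S phase of the cell cycle. They were taken by gene name from the tables of read counts and not by a measured value, though with earlier results of these data known. They comprise the CIP/KIP inhibitors CDKN1A, CDKN1B and CDKN1C, the INK4 inhibitors CDKN2A, CDKN2C and CDKN2D, the D cyclins CCND1, CCND2 and CCND3, and the pocket protein gene RB1, and make up 10 of the 31589 genes in the tables. All 10 passed the filter on low counts in each of the 3 comparisons.

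Human spinal cord organoids (SCOs) were grown from WTC, an established line of induced pluripotent stem cells, and messenger RNA of whole organoids was sequenced in 9 libraries, 3 for each of 3 conditions. Vehicle organoids received FGF and no other agent, VPA organoids received valproic acid, an inhibitor of histone deacetylases, and VPA+Rapamycin organoids received valproic acid together with Rapamycin, an inhibitor of mTOR. The study describes its exposure to VPA as one to FGF and VPA together, so that FGF was common to both. The labels give the genotype as WT and the treatment as lasting 96 h in every condition, whereas the study describes clones of WTC that carry a reporter at the SOX10 locus, with organoids of each clone pooled for RNA. The libraries of each condition carry the codes C4, C5 and C6 in the labels, the same 3 in every condition. The study says that its libraries each stand for 1 clone, but the codes are not its clone names and no source used here matches them, and the dose and the length of exposure are stated differently in different sections of the study. Libraries of a condition may thus be clones of 1 line, and p-values measure the spread between these libraries.

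Cells in G1 make D cyclins in response to growth signals. D cyclins bind the kinases CDK4 and CDK6, which begin to phosphorylate the RB1 protein, and cyclin E with CDK2 completes this, so that E2F factors are released and genes of DNA replication are transcribed. INK4 proteins bind CDK4 and CDK6 and keep D cyclins from them, while CIP/KIP proteins bind complexes of cyclin and kinase and block CDK2 in particular. In the embryonic spinal cord D cyclins mark cycling progenitors, and CDKN1B and CDKN1C rise as neurons leave the cycle. CDKN1A, which encodes p21, and CDKN2A, which encodes p16INK4a and in another frame p14ARF, are the inhibitors most often used as marks of senescence. Much of the control of p27, the CDKN1B product, and of cyclin D1 acts on the protein, which RNA does not show.

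Vehicle libraries held 15290299 to 17189216 reads on genes, VPA libraries 16217858 to 17417338 and VPA+Rapamycin libraries 15609677 to 16795880. Counts were scaled for library size and composition, and the scaled counts are given throughout as levels. Vehicle libraries 1 and 3 differed most of all pairs within a condition, with a chi-square of 39.1 per gene against 4.75 to 17.9 in the other pairs. Without vehicle library 3, 6 of the 10 genes passed the test between VPA and vehicle in place of 7, with CDKN2A lost, and 6 passed between VPA+Rapamycin and vehicle, as with it. Calls over all genes also moved when single libraries were left out, over ranges given at the end.

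With VPA, 7 of the 10 genes passed the edgeR quasi-likelihood test at an adjusted p of at most 0.05 (5568 of 17360 genes tested, 32.1%). CDKN1A, CDKN1C, CCND1 and CCND2 fell (15.7% of all genes were called lower) and CDKN2A, CDKN2C and CCND3 rose (16.4% were called higher). When Rapamycin was added to VPA, CDKN1A fell further and no other member passed (6.74% of 17317 genes were called, 3.01% higher and 3.73% lower). Between VPA+Rapamycin and vehicle 6 members passed (19.0% of 17383 genes), with CDKN2C and CCND3 higher (9.81% of all genes) and CDKN1A, CDKN1C, CCND1 and CCND2 lower (9.22%). Without VPA+Rapamycin library 3, 3 members passed, and calls over all genes in this comparison also moved as libraries were left out. The median absolute log2 fold change of the 10 genes was 0.83, 0.23 and 0.72 in the 3 comparisons, where that of all genes tested was 0.36, 0.16 and 0.30. The levels of the groups did not overlap for 8 members between VPA and vehicle (47.5% of all genes), for 2 between VPA+Rapamycin and VPA (25.5%) and for 6 between VPA+Rapamycin and vehicle (38.5%). The comparisons share libraries, since each condition enters 2 of them, and so are not independent of each other.

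**Figure D1:**
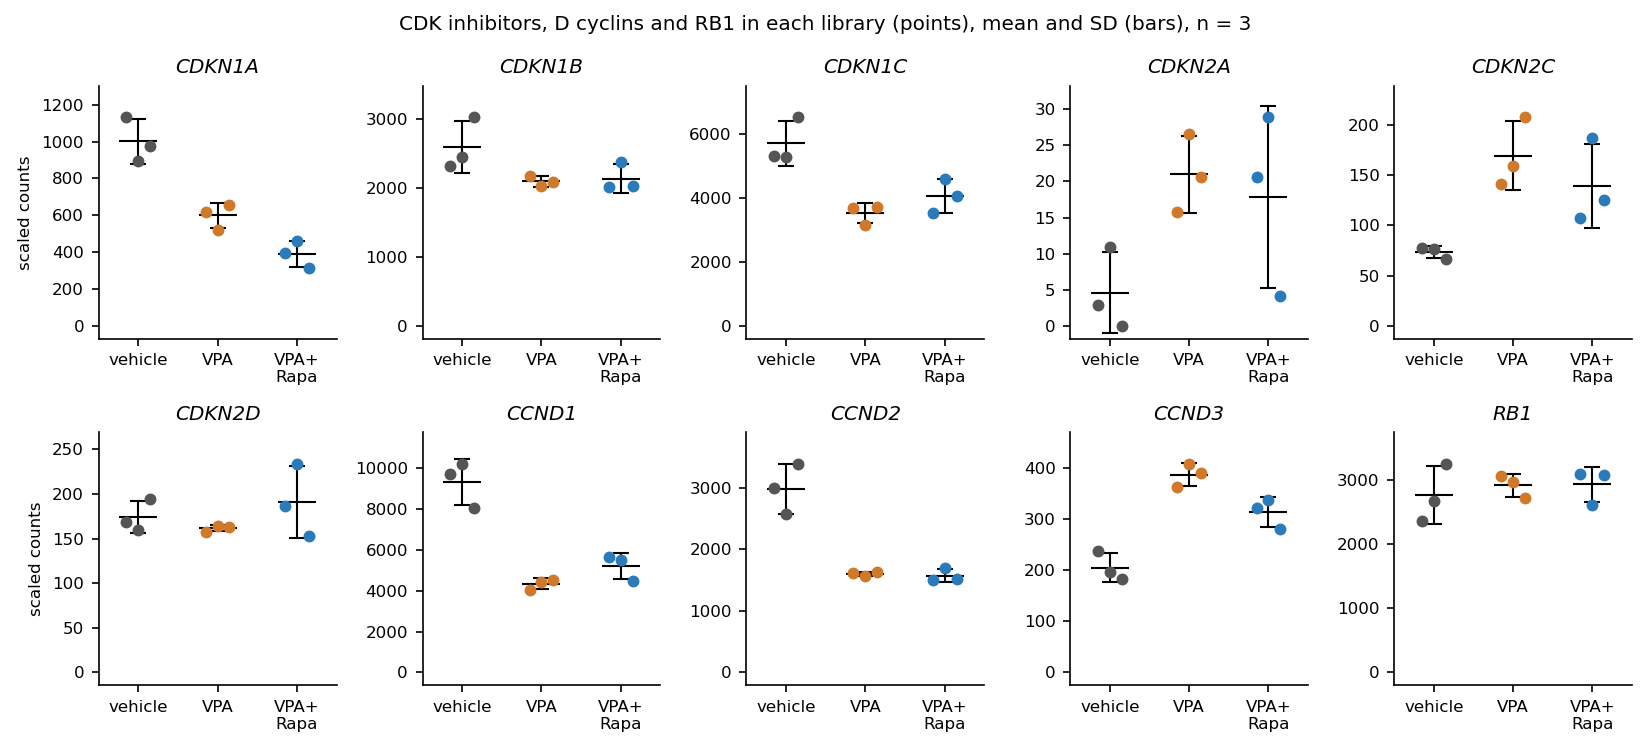
Level of each of the 10 genes, in scaled counts (y axis, a separate linear scale for each gene), in the 3 libraries (points) of vehicle, VPA and VPA+Rapamycin organoids (x axis), with the mean (long bar) and SD (whiskers). CDKN1A stepped down over the 3 conditions without overlap, CCND1 and CCND2 were lower and CCND3 and CDKN2C higher in all treated libraries than in all vehicle libraries, and RB1 overlapped throughout.

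Sequence upstream of the RefSeq start (GRCh38.p14) is shown for CDKN1A, the 1 member that passed in all 3 comparisons, and for CDKN2C and CDKN2D, neighbours in function of which 1 rose with VPA and the other did not pass. Only the longest stretch outside every exon of the GENCODE v29 annotation is printed. For CDKN1A this is chr6:36678560-36678657 on the plus strand, 154 to 57 bases before the start, and capitals mark GC boxes (GGGCGG). For CDKN2C it is chr1:50960495-50960744 on the plus strand, the whole 250 bases before the start, and capitals mark an E-box (CACGTG). For CDKN2D it is chr19:10569060-10569229 on the minus strand, 250 to 81 bases before the start, and capitals mark, in order, a CCAAT box, an E2F site (TTTNNCGC) and a GC box.
CDKN1A: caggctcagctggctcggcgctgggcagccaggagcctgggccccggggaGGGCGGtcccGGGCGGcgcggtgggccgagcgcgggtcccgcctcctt
CDKN2C: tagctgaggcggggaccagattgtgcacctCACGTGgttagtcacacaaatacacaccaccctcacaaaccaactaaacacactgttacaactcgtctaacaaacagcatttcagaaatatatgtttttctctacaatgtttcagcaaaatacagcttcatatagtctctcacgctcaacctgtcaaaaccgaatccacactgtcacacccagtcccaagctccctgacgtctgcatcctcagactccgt
CDKN2D: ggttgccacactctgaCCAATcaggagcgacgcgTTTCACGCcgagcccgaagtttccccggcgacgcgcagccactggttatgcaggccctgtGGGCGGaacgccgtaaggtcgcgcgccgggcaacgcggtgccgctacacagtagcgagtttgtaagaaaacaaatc

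The RefSeq promoter table held 7 of the 10 genes, that is all but CDKN1C, CCND1 and CCND2. A single start was searched for each gene, and starts of its other transcripts were not. For CDKN2A the window lies just outside its span, so that any start of p16INK4a or p14ARF inside the span was not covered. In the 250 bases before the start 4 GC boxes were found for CDKN1A, 104, 94, 45 and 40 bases before it, the last pair sharing a base, and 5 for CCND3, 2 for CDKN2D and 1 for CDKN1B, but none for CDKN2A or CDKN2C. At least 1 GC box was present in 42.3% of 27305 promoters. GC made up 76.4% of the CDKN1A window and 45.6% of the CDKN2C window, against 67.6% for CDKN2D. The E-box of CDKN2C lay 220 bases before the start (6.49% of promoters hold one), and the E2F site of CDKN2D 216 bases before it (5.93%). An AP-1 site (TGANTCA, 6.60% of promoters), a cyclic AMP response element (TGACGTCA, 1.77%) and a TATA box (TATAAA, 11.1%) were searched on both strands as well and matched none of the windows of CDKN1A, CDKN1B, CDKN2A, CDKN2C, CDKN2D and CCND3, while a CCAAT box (33.0%) matched 2 times for CDKN1B and 1 time for CDKN2D. CDKN1A, which fell, and CCND3, which rose, both held several GC boxes, and a link between these motifs and the changes was not tested. The window of RB1 lies inside the gene, far from the start of its span in the tables, and was left aside. Those of CDKN1A, CDKN1B and CCND3 also lie inside the spans of their genes, nearer the start, and were kept. Of their 250 bases, 152, 244 and 250, in that order, lie in exons of GENCODE v29.

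Among the CIP/KIP inhibitors, CDKN1A (chr6:36676460-36687339, plus strand) is a DNA damage response gene and a known target of histone deacetylase inhibitors, which raise it in many cell lines. Here its RNA was lower with VPA. For the p21 protein the study reports the reverse, a rise with VPA that Rapamycin prevented, and RNA does not show the protein. The RNA level of CDKN1A was 1131, 894 and 976 in the vehicle libraries, 617, 523 and 658 in the VPA libraries and 396, 460 and 315 in the VPA+Rapamycin libraries. Every VPA library lay below every vehicle library, and every VPA+Rapamycin library below every VPA library. VPA lowered CDKN1A to 59.9% of the vehicle mean (log2 fold change -0.75, SE 0.13, edgeR adjusted p = 0.00188) and VPA+Rapamycin to 39.0% (-1.37, SE 0.16, adjusted p = 0.000480). The step from VPA to VPA+Rapamycin was -0.61 (SE 0.13, adjusted p = 0.00722). That step kept its direction in all alternatives and its call in all but the fit of all 9 libraries together, where it was -0.62 with an adjusted p of 0.0785. DINOL, a noncoding gene on the opposite strand at the CDKN1A promoter, shares 146 exonic bases with it and held 6, 9 and 11 reads in vehicle, 3, 3 and 4 in VPA and 0, 3 and 2 in VPA+Rapamycin libraries. These counts are too few for the test and amount to 0.688% of those of CDKN1A.

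CDKN1C (p57, chr11:2883213-2885773, minus strand), an imprinted inhibitor that is high in cells leaving the cycle, was also lower with VPA. It measured 5323, 5277 and 6523 in vehicle, 3688, 3167 and 3721 in VPA and 3547, 4601 and 4063 in VPA+Rapamycin libraries. All treated libraries lay below all vehicle libraries, and the treated conditions overlapped each other. The log2 fold change was -0.71 with VPA (SE 0.12, adjusted p = 0.00122), -0.50 with VPA+Rapamycin against vehicle (SE 0.13, adjusted p = 0.0225) and 0.21 with VPA+Rapamycin against VPA (95% interval 0.02 to 0.40, adjusted p = 0.185). The call of VPA+Rapamycin against vehicle was lost without VPA+Rapamycin library 1 (-0.40, adjusted p = 0.117) and without library 3 (-0.49, adjusted p = 0.0840).

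CDKN1B (p27, chr12:12715058-12722371, plus strand) did not pass in any comparison. It measured 2315, 2446 and 3028 in vehicle, 2181, 2025 and 2095 in VPA and 2011, 2382 and 2026 in VPA+Rapamycin libraries. The VPA libraries were all below the vehicle libraries, at 80.9% of their mean, but by a margin that missed the threshold (-0.32, 95% interval -0.58 to -0.06, edgeR adjusted p = 0.0609). It passed without vehicle library 1 (-0.39, adjusted p = 0.0110), in the fit of all 9 libraries (adjusted p = 0.0401) and among protein-coding genes alone (adjusted p = 0.0406), and against vehicle VPA+Rapamycin passed without vehicle library 1 (-0.37, adjusted p = 0.0493). The log2 fold change was 0.03 between VPA+Rapamycin and VPA (interval -0.14 to 0.20).

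Levels per kilobase of exon allow the inhibitors to be set beside each other. CDKN1C held most of the summed CIP/KIP level throughout, with 64.8% ± 0.538 (SD, n = 3) in vehicle organoids, 60.1% ± 1.06 with VPA and 64.8% ± 1.85 with VPA+Rapamycin. CDKN1A held 9.31% ± 1.62, 8.29% ± 0.437 and 5.06% ± 0.776. Its share overlapped between vehicle and VPA and was lower in every VPA+Rapamycin library than in every VPA library, with a difference of means of -3.22 percentage points (exact two-sided permutation p = 0.1, the smallest that 3 against 3 libraries can give). CDKN1B held 25.9% ± 1.13 in vehicle and 31.6% ± 1.48 in VPA, without overlap (exact permutation p = 0.1), although its own estimate with VPA was below 0. The summed level of the family was 3555 ± 412 per kilobase in vehicle, 2366 ± 170 with VPA and 2532 ± 295 with VPA+Rapamycin, without overlap between vehicle and either treatment (exact permutation p = 0.1 for each).

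**Figure D2:**
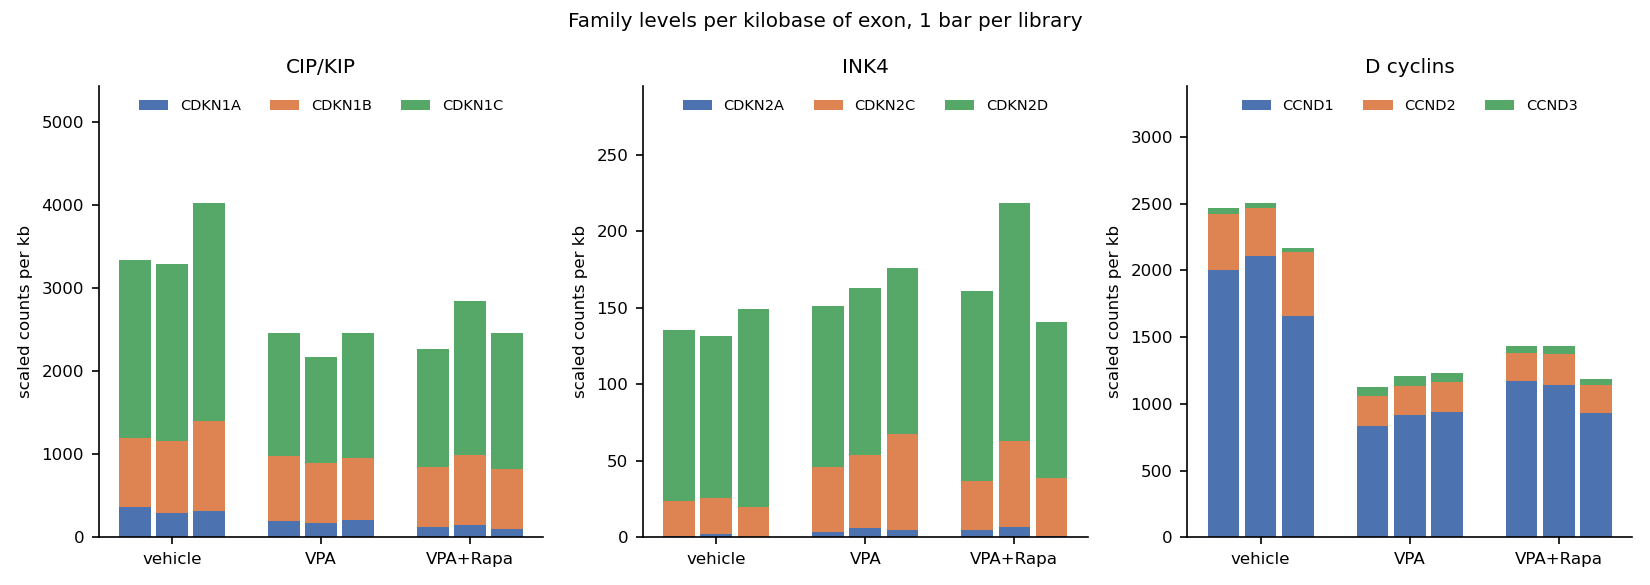
Summed level of CIP/KIP inhibitors, INK4 inhibitors and D cyclins (y axis, scaled counts per kilobase of exon, starting at 0, a separate scale for each family) in each of the 9 libraries (1 bar per library, grouped by condition on the x axis), with the part of each gene in colour. CDKN1C, CDKN2D and CCND1 made up most of their families in all 9 libraries, the D cyclin bars of the treated conditions were lower than all vehicle bars, and CCND3 was the thin top segment in every one.

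CDKN2A and CDKN2C, the INK4 inhibitors that passed with VPA, were higher, and both were read at far lower levels than the CIP/KIP genes. CDKN2C (p18, chr1:50960745-50974633, plus strand) is an inhibitor active in neural progenitors. Its levels were 77.2, 76.1 and 66.4 in vehicle, 141, 159 and 207 in VPA and 107, 187 and 125 in VPA+Rapamycin libraries. Every treated library was above every vehicle library. CDKN2C was 2.29-fold higher with VPA (log2 fold change 1.20, SE 0.22, edgeR adjusted p = 0.00204), a call kept in all 15 alternatives. It was 1.89-fold higher with VPA+Rapamycin than with vehicle (0.92, SE 0.25, adjusted p = 0.0259), a call lost without vehicle library 2 (0.95, adjusted p = 0.0707), without VPA+Rapamycin library 2 (0.66, adjusted p = 0.129) and without library 3 (1.00, adjusted p = 0.0567). The change from VPA to VPA+Rapamycin was -0.27 with an interval of -0.71 to 0.16.

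CDKN2A (chr9:21967753-21995301, minus strand) was close to the limit of counting. The libraries held 3, 10 and 0 reads in vehicle, 16, 26 and 22 in VPA and 21, 30 and 4 in VPA+Rapamycin. The VPA libraries were all above the vehicle libraries, whereas VPA+Rapamycin library 3 fell among the latter. A count of 0 allows up to 3 reads, by counting error alone. The log2 fold change with VPA was 2.18, with an interval from 0.52 to 3.84 and an adjusted p of 0.0465. The call was lost in 6 of 14 alternatives. They were the fit of all 9 libraries (adjusted p = 0.0517) and leaving out vehicle library 1 (1.94, adjusted p = 0.0898), vehicle library 3 (1.60, adjusted p = 0.0619), or VPA library 1 (2.35, adjusted p = 0.0834), 2 (1.98, adjusted p = 0.153) or 3 (2.19, adjusted p = 0.119). Without vehicle library 2 the estimate was 3.70 (adjusted p = 0.0170). VPA+Rapamycin differed by 1.96 from vehicle (adjusted p = 0.154; 2.13 and adjusted p = 0.0389 with the shared code of the libraries as a replicate block) and by -0.21 from VPA (interval -1.30 to 0.87). Reads of the p16INK4a and p14ARF transcripts are counted together, and CDKN2B-AS1, which lies on the opposite strand and shares 341 exonic bases, held 0, 0 and 0 reads in vehicle, 0, 4 and 1 in VPA and 1, 0 and 1 in VPA+Rapamycin libraries.

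CDKN2D (p19, chr19:10566462-10569059, minus strand), the most abundant INK4 gene per kilobase, did not pass in any comparison. It ranged from 159.9 to 194 in vehicle, from 158 to 164 in VPA and from 153 to 234 in VPA+Rapamycin libraries, and all conditions overlapped. Its log2 fold change with VPA was -0.12 (interval -0.49 to 0.26). The share of CDKN2C in the INK4 level per kilobase was 16.0% ± 2.23 in vehicle, 31.0% ± 3.97 with VPA and 24.2% ± 3.65 with VPA+Rapamycin, with no overlap between any of them (exact permutation p = 0.1 each), and that of CDKN2D was 83.2%, 66.0% and 73.6%. CDKN2B (p15), the fourth INK4 gene, had mean levels of 16.8, 15.1 and 17.2 and did not pass (log2 fold change -0.17 with VPA, adjusted p = 0.807).

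The D cyclins moved in opposite directions. CCND1 (chr11:69641087-69654474, plus strand), the D cyclin most responsive to growth signals, measured 9685, 10194 and 8018 in vehicle, 4034, 4432 and 4531 in VPA and 5654, 5501 and 4485 in VPA+Rapamycin libraries. The vehicle libraries were all above the treated ones, and VPA+Rapamycin library 3 lay among the VPA libraries. VPA brought CCND1 to 46.6% of the vehicle mean (log2 fold change -1.11, SE 0.11, edgeR adjusted p = 6.30e-05), the smallest adjusted p among the members. VPA+Rapamycin brought it to 56.1% (-0.84, SE 0.13, adjusted p = 0.00182). Between the treated conditions the estimate was 0.27 (interval 0.09 to 0.45) and missed the threshold (adjusted p = 0.0683), but passed with DESeq2 (adjusted p = 0.0320), without the filter on low counts (0.0150), among protein-coding genes (0.0487) and without VPA+Rapamycin library 3 (0.37, adjusted p = 0.0187). LTO1, on the opposite strand with 497 shared exonic bases, held 4.59% of the reads of CCND1 and did not pass (-0.19 with VPA, adjusted p = 0.372).

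CCND2 (chr12:4273772-4305350, plus strand), which marks neural progenitors in the developing nervous system, measured 2993, 2574 and 3391 in vehicle, 1622, 1562 and 1625 in VPA and 1499, 1699.7 and 1520.1 in VPA+Rapamycin libraries. Both treated conditions lay below vehicle in every library and overlapped each other. The log2 fold change was -0.91 with VPA (SE 0.12, adjusted p = 0.000274) and -0.94 with VPA+Rapamycin against vehicle (SE 0.12, adjusted p = 0.00104). Between VPA+Rapamycin and VPA it was -0.02, with an interval of -0.18 to 0.13. The antisense gene CCND2-AS1 shares 126 exonic bases and held 0 to 13 reads per library, 0.261% of those of CCND2.

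CCND3 (chr6:41934933-42050357, minus strand), the D cyclin found most widely in differentiated tissues, went the other way. It measured 236, 197 and 182 in vehicle, 363, 408 and 389 in VPA and 321, 338 and 280.1 in VPA+Rapamycin libraries. The 3 conditions did not overlap, with VPA highest and vehicle lowest. CCND3 was 1.87-fold higher with VPA (log2 fold change 0.90, SE 0.15, edgeR adjusted p = 0.00129) and 1.52-fold higher with VPA+Rapamycin than with vehicle (0.60, SE 0.16, adjusted p = 0.0262). The latter call was lost without vehicle library 2 (0.57, adjusted p = 0.0940) and without VPA+Rapamycin library 1 (0.58, adjusted p = 0.0971), 2 (0.55, adjusted p = 0.107) or 3 (0.68, adjusted p = 0.0527). The difference between VPA+Rapamycin and VPA was -0.30 (interval -0.54 to -0.06, adjusted p = 0.130).

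Per kilobase CCND3 made up 1.49% ± 0.153 of the D cyclin level in vehicle, 5.61% ± 0.193 with VPA and 3.99% ± 0.116 with VPA+Rapamycin. No library of any condition overlapped with those of another (exact permutation p = 0.1 for each pair). CCND1 held 80.8% ± 3.84, 75.5% ± 1.05 and 79.7% ± 1.75, so that it stayed the leading D cyclin throughout. The summed D cyclin level was 2378 ± 185 per kilobase in vehicle, 1188 ± 56.3 with VPA and 1353 ± 142 with VPA+Rapamycin. On this scale CCND3 went from 35.3 in vehicle to 66.7 in VPA, a small step beside those of CCND1 from 1925 to 897 and of CCND2 from 417 to 224.

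RB1 (chr13:48303726-48599436, plus strand), whose product is the brake that D cyclin kinases release, measured 2371, 2668 and 3257 in vehicle, 3069, 2968 and 2725 in VPA and 3104, 2619 and 3078 in VPA+Rapamycin libraries. The conditions overlapped. The log2 fold change was 0.07 with VPA (interval -0.21 to 0.34), 0.01 with VPA+Rapamycin against VPA (-0.16 to 0.18) and 0.07 against vehicle (-0.22 to 0.37), and none passed. RCBTB2 and LPAR6 lie on the opposite strand within the span of RB1, share no exonic base with it and fell with VPA. RCBTB2, with 12.4% of the reads of RB1, changed by -1.04 (adjusted p = 0.000721), and LPAR6, with 6.55%, by -1.37 (adjusted p = 0.00127).

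**Figure D3:**
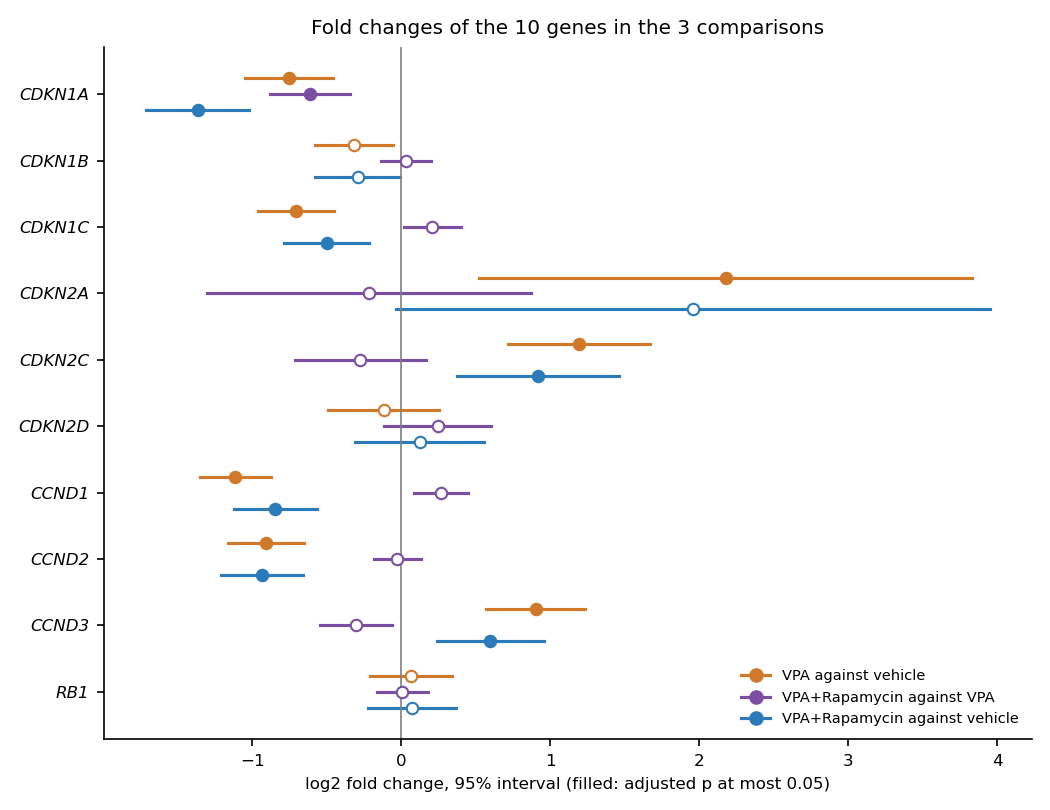
Log2 fold change (x axis) with its 95% interval (line) for each of the 10 genes (y axis) in VPA against vehicle, VPA+Rapamycin against VPA and VPA+Rapamycin against vehicle (colours), filled where the edgeR adjusted p was at most 0.05. CDKN1A is the 1 gene filled for all 3, CDKN2A has the widest intervals, and RB1, CDKN1B and CDKN2D are open throughout.

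Per kilobase the order of the 10 genes was the same in every condition: CDKN1C, CCND1, CDKN1B, RB1, CCND2, CDKN1A, CDKN2D, CCND3, CDKN2C and CDKN2A. In vehicle these levels ran from 2303 ± 285 for CDKN1C over 1925 ± 236 for CCND1, 924 ± 135 for CDKN1B and 429 ± 69.8 for RB1 down to 1.06 ± 1.30 scaled counts per kilobase for CDKN2A. Neighbours whose libraries overlapped were RB1 and CCND2, and CCND2 and CDKN1A, in vehicle, and CDKN1A and CDKN2D, and CCND3 and CDKN2C, in VPA+Rapamycin, whereas in VPA every neighbour was separate. CDKN1A and CDKN2D stood at 328 and 116 per kilobase in vehicle, at 196 and 108 in VPA and at 128 and 127 in VPA+Rapamycin.

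The other genes of the pathway were taken from 6 lists of 100 genes, all of which were tested. With VPA 24 passed higher and 14 lower, beside 16.4% and 15.7% of all genes, so that the total of 38 lay close to the 32.1% of all genes. With VPA+Rapamycin against VPA 1 passed higher and 17 lower (3.01% and 3.73% of all genes), and with VPA+Rapamycin against vehicle 5 higher and 15 lower (9.81% and 9.22%). The first total of 38 fell to 23 without VPA library 2 or 3. The second of 18 fell to 11, 7 and 11 without VPA library 1, 2 and 3, and to 11 and 5 without VPA+Rapamycin library 2 and 3. The last of 20 fell to 9 without vehicle library 2 and to 6, 11 and 8 without VPA+Rapamycin library 1, 2 and 3.

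Of 12 G1 kinases, E cyclins and other kinase regulators, 4 rose with VPA and none fell (16.4% and 15.7% of all genes). CCNE1, a partner of CDK2, rose from 159.5 to 376 (log2 fold change 1.23, SE 0.19, edgeR adjusted p = 0.000901) and was above vehicle with VPA+Rapamycin as well (1.11, adjusted p = 0.00410). CCNE2 did not pass (0.05, adjusted p = 0.874). CDK2 (0.46, adjusted p = 0.00811), CDK4 (0.52, adjusted p = 0.00977) and CDKN3, a phosphatase of CDK2 (0.60, adjusted p = 0.00849), also rose. CDK6 did not pass (0.20, adjusted p = 0.168). CDK4 alone of this list was called between VPA+Rapamycin and VPA (6.74% of all genes), where it fell (-0.34, adjusted p = 0.0317). CDK4, a partner of the D cyclins, thus rose with VPA, as did CCND3, while CCND1 and CCND2 fell.

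Of 16 pocket proteins, E2F factors and DREAM subunits, VPA raised RBL1, E2F2 and E2F8 (16.4% of all genes) and lowered RBL2 (15.7%). RBL1 (p107), the pocket protein of cycling cells, rose by 0.52 (adjusted p = 0.0146), and RBL2 (p130), that of quiescent cells, fell by 0.36 (adjusted p = 0.0183). E2F8, a repressor that is itself an E2F target, rose by 1.22 (adjusted p = 0.00244) and the activator E2F2 by 0.77 (adjusted p = 0.0125), whereas E2F1 did not pass (0.15, adjusted p = 0.503). E2F7 was lower with VPA+Rapamycin than with VPA (-0.44, adjusted p = 0.00963), and E2F5 lower than in vehicle (-0.53, adjusted p = 0.0127).

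Of 18 genes that E2F drives at the entry into S phase, 10 rose with VPA and none fell (16.4% and 15.7% of all genes). The median log2 fold change of the 18 was 0.47 where that of all genes was 0.00. Vehicle library 3 was the lowest vehicle library for these genes other than CDC6, RRM2 and CCNA2. Levels in vehicle libraries 1, 2 and 3 were 2023, 1764 and 1116 for MCM2 and 834, 902 and 519 for GINS2. POLA1, a subunit of DNA polymerase alpha, rose most (0.84, adjusted p = 0.000750). With VPA+Rapamycin against VPA the estimates of all 18 were below 0 and 8 passed (3.73% of all genes were called lower), with a median of -0.29. CCNA2, cyclin A, fell by 0.37 (adjusted p = 0.00449) and CDC6, a loader of the replicative helicase, by 0.47 (adjusted p = 0.0166). Against vehicle, VPA+Rapamycin had MCM6 and POLA1 higher (9.81% of all genes), CCNA2 lower (-0.39, adjusted p = 0.0207, 9.22% of all genes) and 15 that did not pass. Fewer cells of a type and less RNA per cell cannot be told apart in bulk RNA.

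**Figure D4:**
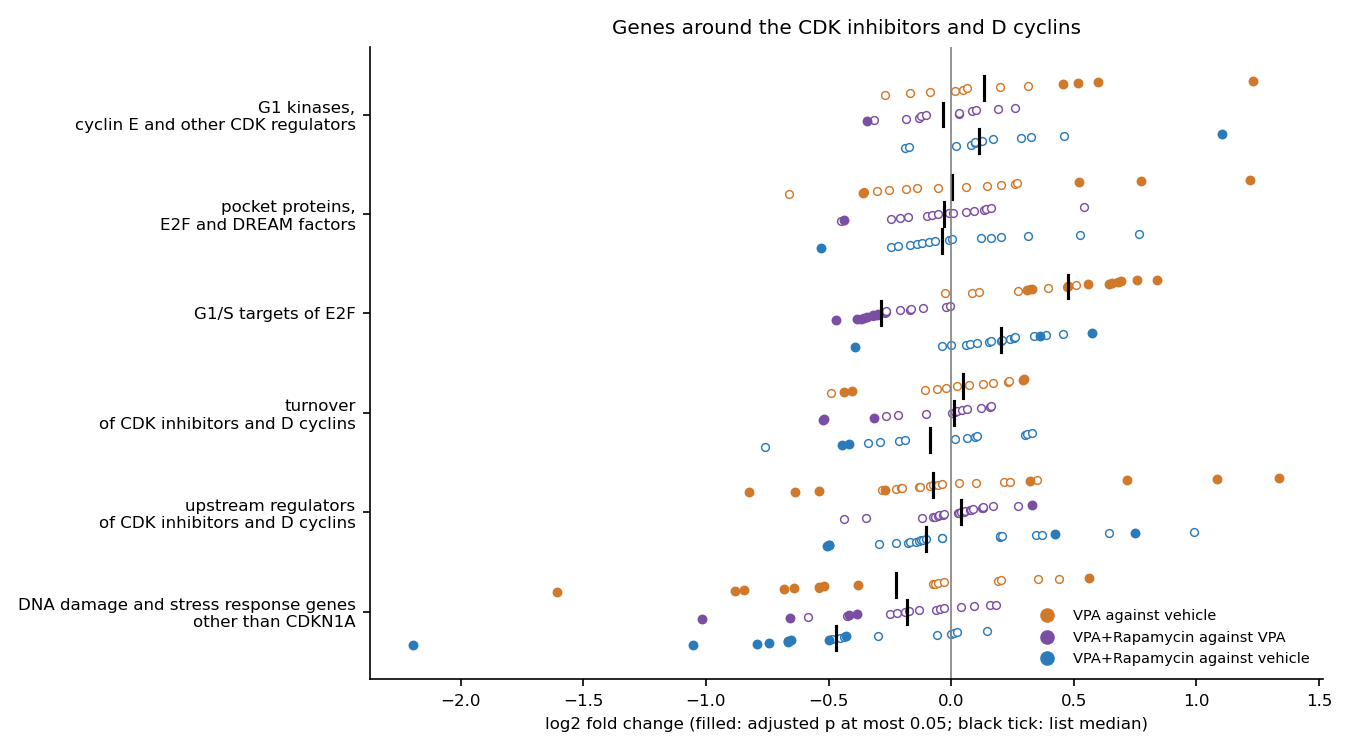
Log2 fold change (x axis) of each gene of the 6 lists (y axis) in the 3 comparisons (colours), filled where the edgeR adjusted p was at most 0.05, with the list median as a black tick. Genes driven by E2F lie mostly to the right with VPA and all to the left of 0 with VPA+Rapamycin against VPA, and DNA damage and stress response genes lie mostly to the left in all 3 comparisons.

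Of 14 genes of the turnover of these proteins, DDB1 and PSMF1 rose (16.4% of all genes) and CUL1 and GSK3B fell (15.7%) with VPA. GSK3B, a kinase that marks cyclin D1 for degradation, fell by 0.44 (adjusted p = 0.0100). SKP2 and CKS1B, which together direct p27 to degradation, fell with VPA+Rapamycin against VPA by 0.32 (adjusted p = 0.0177) and 0.52 (adjusted p = 0.000658), as did CKS2 by 0.52 (adjusted p = 0.00230), while CDKN1B RNA was at 0.03.

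Of 23 upstream regulators, MYC, ID1, ETS1 and HDAC1 rose with VPA (16.4% of all genes) and MDM2, MDM4, SP1 and KDM6B fell (15.7%). MYC, a repressor of CDKN1A and an activator of CCND2 in many cells, rose from 219 to 468 (1.09, adjusted p = 0.00144). KDM6B, a histone demethylase that can act on CDKN2A, fell by 0.83 (adjusted p = 0.000449) and was higher with VPA+Rapamycin than with VPA (0.33, adjusted p = 0.0487). SP1, a factor that binds GC boxes, fell by 0.27 (adjusted p = 0.0441). ETS1 is also among the neural crest markers used here, and MDM2 among the DNA damage and stress response genes.

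Of 18 DNA damage and stress response genes other than CDKN1A, VPA lowered 8 (15.7% of all genes) and raised SESN2 (16.4%). GDF15, a secreted stress factor, fell by 1.61 (adjusted p = 0.00191), ZMAT3 by 0.88 (adjusted p = 0.00492), PLK3 by 0.84 (adjusted p = 0.000764) and SESN1 by 0.68 (adjusted p = 0.00298). MDM2, a ubiquitin ligase, fell by 0.54 (adjusted p = 0.0153). With VPA+Rapamycin against VPA 4 fell (3.73% of all genes), SESN2, BTG2, GADD45A and AEN, of which BTG2, an antiproliferative gene, fell by 1.02 (adjusted p = 2.15e-06). Against vehicle 9 were lower and none higher (9.22% and 9.81% of all genes). The median of the list was -0.23, -0.18 and -0.47 in the 3 comparisons, while the medians of all genes tested were within 0.01 of 0.

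Markers of cell types moved with the conditions, and their part in the values above was not tested. The summed level of 11 mesenchymal markers was 2994 to 5818 in vehicle, 10504 to 13055 in VPA and 5083 to 7055 in VPA+Rapamycin, and COL1A1 and COL1A2 made up most of its mean in each. With VPA these 2 genes and THY1 rose and 7 of the 10 tested did not pass, 4 of them with estimates below 0, such as PDGFRA (48.7% of the vehicle mean) and POSTN (45.2%), and with VPA+Rapamycin against VPA 6 fell. The summed level of 10 neuronal markers was 19986 to 34288, 18471 to 20171 and 19945 to 21270, and DCX, TUBB3, ELAVL3, ELAVL4 and ISL1 fell with VPA. That of 11 spinal cord progenitor markers was 39067 to 45248, 47405 to 50368 and 43778 to 47751, with HES5 higher and NKX6-1 lower with VPA. The other 9 did not pass with VPA, and 6 of the 11 estimates were below 0 (median -0.03), so the sum does not stand for the whole list. The sum of 9 neural crest markers overlapped between conditions (9190 to 9658, 8581 to 9474 and 9377 to 9838), although SOX10, FOXD3 and TFAP2A fell and ETS1 and ERBB3 rose with VPA. Log2 fold changes of the 8 tested crest markers ran from -5.15 to 1.34 with VPA, a spread that the sum does not show. Summed trunk HOX genes, 9 of 9 present, were at 4207 to 6747, 2768 to 3163 and 3418 to 4309. Pluripotency markers summed to 3885 to 7321, 3720 to 4524 and 3239 to 4138, with UTF1 at 0 in vehicle. Of these 6 genes, 2 passed the filter on low counts between VPA and vehicle, where DPPA4 fell. Between VPA+Rapamycin and VPA 3 passed it, and LIN28A fell. Of 8 skeletal muscle markers 7 were in the tables, with sums of 566 to 879 over all libraries, most of the mean being TTN, and MYOG at 0 in VPA+Rapamycin. With VPA TTN fell (log2 fold change -0.65, adjusted p = 0.0232), TNNT1 rose from 41.4 to 206 (adjusted p = 0.00321) and MYOD1 rose from levels of 0 to 0.977 in vehicle to 13.1 to 25.6 (adjusted p = 0.00119). Of 7 endothelial and blood markers 5 were in the tables, with sums of 59.3 to 132. No other marker in the tables was at 0 in a whole condition.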

How the data were processed

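Messenger RNA was purified on poly-T beads and read by bulk RNA sequencing in 9 libraries. The deposited counts are whole numbers of reads per gene without normalization, in 1 table for each pair of conditions on GRCh38, with genes below 2 reads per table absent. The submitters' processing notes name HISAT2 2.0.5 and featureCounts 1.5.0-p3, and the use of strand is not given in the sources used here. The authors' 36 normalised and FPKM columns, fold changes and p-values were not used. Gene spans matched GENCODE v29 for 31552 of 31589 genes.

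Each pair of conditions was fitted within its own table in R 4.3.3 with edgeR 4.0.16 (TMM, filterByExpr defaults, quasi-likelihood F test, Benjamini-Hochberg over all genes tested, threshold 0.05). Levels are counts scaled with TMM over all 9 libraries, and per kilobase of deposited exon length. A floor of 3 reads was taken as the limit of counting but was not applied to the levels, so that levels of 0 stand. Intervals are 95% and cover the spread between libraries. A difference of shares was tested by exact permutation of libraries. The fit was tested on simulated counts with the same spread for every gene, which does not cover the uneven spread between these libraries. Alternatives were DESeq2 1.42.0, other scalings and filters, all 9 libraries together, a replicate block and each library left out.

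All 10 genes are given in every comparison. Of the 6 pathway lists, genes that passed are named, as are CDK2, CDK4, CDK6, CCNE1, CCNE2, CDKN2B, RBL1, RBL2, E2F1 and MDM2 whatever their p, and antisense genes or those holding over 10% of a member's reads. Which passing genes of a list were given values was chosen for their known roles after the values were seen, and some genes of the lists are counted but not reported here by name. Marker lists covered progenitors, neurons, neural crest, mesenchyme, muscle, pluripotency, endothelium and blood, and trunk HOX genes. The members and lists were chosen with earlier results of these data known.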

Additional observations from a re-analysis of the deposited data

How the results depend on the processing

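Of 447 values of a member's log2 fold change under the alternatives, 413 kept their direction and side of the threshold, 16 lost a call, 9 gained one and 9, none of a called gene, changed sign. The latter arose from leaving out libraries, under which RB1 ranged from -0.031 to 0.21 with VPA (below 0 without vehicle library 1), from -0.039 to 0.083 between VPA+Rapamycin and VPA (-0.039, -0.035 and -0.028 without VPA library 3 and VPA+Rapamycin libraries 1 and 3) and from -0.028 to 0.21 between VPA+Rapamycin and vehicle (below 0 without vehicle library 1), CDKN1B from -0.056 to 0.071, CDKN2A from -0.74 to 0.24 and CCND2 from -0.086 to 0.0078 between VPA+Rapamycin and VPA, and CDKN2D from -0.040 to 0.27 between VPA+Rapamycin and vehicle. Between VPA+Rapamycin and VPA 2 members passed with DESeq2, without the filter and among protein-coding genes, and 0 in the fit of all 9 libraries, where 113 genes and 2 pathway genes passed in place of 1168 and 18. That fit raised the pathway genes of VPA+Rapamycin against vehicle from 20 to 36. The cause was not tested. CDKN2A gave no value under a minimum of 10 counts in every library.

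Leaving out each library gave 6 to 7 members, 3390 to 6710 genes and 23 to 49 pathway genes between VPA and vehicle, 1 to 2, 472 to 1203 and 5 to 23 between VPA+Rapamycin and VPA, and 3 to 7, 1295 to 4314 and 6 to 27 between VPA+Rapamycin and vehicle. The lowest member count, 3, was without VPA+Rapamycin library 3. Scaling to library totals moved the split of the last comparison from 1705 higher and 1602 lower to 2060 and 1255, and no scaling moved the median of all genes by more than 0.1.

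With the replicate number, which follows the codes C4 to C6, as a block, 7, 1 and 7 members, 34, 20 and 28 pathway genes and 4965, 1244 and 4040 genes passed. CDKN2A then passed between VPA+Rapamycin and vehicle (2.13, adjusted p = 0.0389), and no other member's call changed. Same-numbered libraries correlated in their deviations at -0.06 to 0.16 over all comparisons and at 0.06 to 0.16 between VPA+Rapamycin and vehicle. Libraries of different number were not correlated as a reference, so these values do not decide whether libraries are paired by code. Whether the code marks a clone is not stated. Genes of few reads, CDKN2A above all, are those that depth limits.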
